A study of Mus musculus with 71 samples.

Results

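The loops described here are the short-range H3K27ac HiChIP loops of mouse synovial sarcoma (SyS), defined as those whose anchor midpoints lie under 20 kb apart. A script applied that limit to the merged loop list, and 554 of 24244 loops (2.29%) met it. They are called neighbour loops below. The list comes from 2 tumors of hSS2 mice, which carry human SS18::SSX2 in the Rosa26 locus, and in both the fusion was switched on by TATCre protein injected into the hindlimb at 8 days of life. Chromatin was cut with MboI and ligated before it was immunoprecipitated with an antibody against H3K27ac. No control tissue and no other genotype was profiled by HiChIP, and TATCre protein is not restricted to a cell type, so the model sets no cell of origin beyond the site of injection. The tumors were taken as bulk tissue, in which few cells with a loop and few tags per cell cannot be told apart.

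HiChIP joins proximity ligation to chromatin immunoprecipitation, so that each paired-end tag records a contact in which at least the pulled-down DNA carried the mark. H3K27 acetylation marks active promoters and active enhancers, and contacts between them at short distance are a common feature of active gene clusters. Ligation frequency falls steeply with distance along any chromosome, whether or not a specific contact exists, and loop callers therefore ask for more tags from anchors that lie close together. A loop of this kind can join promoters of adjacent genes, alternative promoters of a single gene, or a promoter and an enhancer that sits just outside the gene.

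The sequences below show what kinds of DNA neighbour loops joined. The first set holds the 200 bases before the start of genes at both ends of loops between promoters, namely the loop of Efna3 and Efna4, which encode ephrin-A ligands, with 35 tags and the loop of Ppp1r18, a regulatory subunit of protein phosphatase, and Dhx16, an RNA helicase of splicing, with 16 tags. They come from RefSeq promoters on GRCm38.p6, 5′ to 3′ on the strand of the gene, and the capitals mark CG dinucleotides. The promoter table held 657 of the 825 protein-coding genes near a neighbour loop anchor, and Hoxc9, Hoxc10, Hoxc11, Zic2 and Kdm6b were not among them.
Efna3 promoter, chr3:89321769-89321968, minus strand: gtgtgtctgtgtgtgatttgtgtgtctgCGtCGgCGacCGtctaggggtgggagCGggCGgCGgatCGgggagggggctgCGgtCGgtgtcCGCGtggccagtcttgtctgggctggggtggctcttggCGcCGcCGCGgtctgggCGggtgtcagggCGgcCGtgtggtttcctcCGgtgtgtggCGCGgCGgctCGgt
Efna4 promoter, chr3:89338029-89338228, minus strand: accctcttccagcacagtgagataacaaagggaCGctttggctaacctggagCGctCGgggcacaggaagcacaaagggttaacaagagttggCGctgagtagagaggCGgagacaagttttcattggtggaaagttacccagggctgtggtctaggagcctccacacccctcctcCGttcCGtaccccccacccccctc
Ppp1r18 promoter, chr17:35866415-35866614, plus strand: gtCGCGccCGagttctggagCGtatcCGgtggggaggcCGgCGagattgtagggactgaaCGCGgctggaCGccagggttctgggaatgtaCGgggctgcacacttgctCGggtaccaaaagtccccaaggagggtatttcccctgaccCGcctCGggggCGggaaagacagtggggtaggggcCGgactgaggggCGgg
Dhx16 promoter, chr17:35879578-35879777, plus strand: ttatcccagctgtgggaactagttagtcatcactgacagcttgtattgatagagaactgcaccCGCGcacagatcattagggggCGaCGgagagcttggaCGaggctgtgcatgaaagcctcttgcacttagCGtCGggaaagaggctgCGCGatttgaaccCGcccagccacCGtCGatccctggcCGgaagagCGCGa

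The second set holds the middle 200 bases of the anchors that lay far from every annotated TSS and belonged to the strongest loops of that kind, read from GRCm38 on the plus strand with the same capitals. None of these stretches overlaps an annotated exon.
Lncppara intron, left anchor, chr15:85657184-85657383: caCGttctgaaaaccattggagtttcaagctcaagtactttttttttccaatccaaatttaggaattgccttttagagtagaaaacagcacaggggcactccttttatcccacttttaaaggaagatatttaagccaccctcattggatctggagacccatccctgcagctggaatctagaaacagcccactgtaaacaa
Lncppara intron, middle anchor, chr15:85670997-85671196: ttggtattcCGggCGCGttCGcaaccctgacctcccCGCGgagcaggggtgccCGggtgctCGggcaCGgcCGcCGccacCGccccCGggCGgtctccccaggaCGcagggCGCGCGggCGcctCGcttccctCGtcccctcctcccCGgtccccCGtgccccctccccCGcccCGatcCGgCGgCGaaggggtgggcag
Lncppara intron, right anchor, chr15:85678556-85678755: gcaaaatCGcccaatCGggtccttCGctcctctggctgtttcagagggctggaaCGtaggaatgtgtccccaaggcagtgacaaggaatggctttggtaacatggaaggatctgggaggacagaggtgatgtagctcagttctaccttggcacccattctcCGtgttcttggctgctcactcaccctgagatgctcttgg
Downstream of Zic2, chr14:122483303-122483502: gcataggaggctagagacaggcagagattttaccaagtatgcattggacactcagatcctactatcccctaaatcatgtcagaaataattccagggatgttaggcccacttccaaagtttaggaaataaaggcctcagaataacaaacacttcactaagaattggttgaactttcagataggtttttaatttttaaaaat
Upstream of Kdm6b, chr11:69418409-69418608: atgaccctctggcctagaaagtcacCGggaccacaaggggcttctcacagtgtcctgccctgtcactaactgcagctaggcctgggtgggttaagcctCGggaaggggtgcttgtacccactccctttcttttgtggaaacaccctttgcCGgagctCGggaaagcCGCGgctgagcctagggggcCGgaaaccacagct
Downstream of Gadd45b, chr10:80938302-80938501: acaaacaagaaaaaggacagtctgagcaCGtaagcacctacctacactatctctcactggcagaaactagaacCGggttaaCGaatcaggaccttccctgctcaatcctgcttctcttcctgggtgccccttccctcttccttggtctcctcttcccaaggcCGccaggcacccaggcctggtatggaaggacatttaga

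The printed promoters held between 7 and 24 CG dinucleotides, with 24 at Efna3, 7 at Efna4, 17 at Ppp1r18 and 15 at Dhx16. The loop of Cpt1c and the antisense gene Gm15545, which lay between the printed loops with 21 tags, is not printed. Its promoters held fewer, with 4 at Cpt1c and 6 at Gm15545. For comparison, the 928 RefSeq promoters of genes near a neighbour loop anchor held a median of 13 in the same 200 bases (quartiles 8 and 18), and all 32851 RefSeq promoters held a median of 5. The latter include promoters that no loop reached, and promoters at longer loops were not counted. No trait particular to neighbour loops is therefore read from this difference. The printed anchors far from TSSs held 1, 28, 5, 0, 7 and 4 in the order given, and the middles of all 123 such anchors held a median of 4 (quartiles 2 and 8). The middle anchor of the Lncppara locus, with 28, was thus as dense in CG as the richest printed promoter, although the nearest annotated TSS lay 15.7 kb from the anchor. The stretch beside Zic2, with none, stood at the other end.

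Neighbour loops held 6169 of the 41574 tags in the list (14.8%, Wilson 95% interval 14.5 to 15.2%), with 2.29% of the loops. The share of tags was 17.7% in the first part of the list and 8.51% in the second. Among loops with at least 4 tags neighbour loops made up 33.9% of the loops and held 42.5% of the tags. That limit removed no neighbour loop, while it kept 602 of 690 loops of 20 to 100 kb and 477 of 23000 longer ones. The higher shares were thus fixed in advance. They had a median of 10 tags per loop (interval 9 to 10) and at most 74. None of them rested on a single tag, and the lowest count was 4. The 690 loops of 20 to 100 kb had a median of 8 tags (interval 8 to 8), whereas the 23000 loops of 100 kb and more had a median of 1. Within the 2 parts of the list, described below, the medians were 12 and 4 for neighbour loops and 9 and 4 for loops of 20 to 100 kb. The lowest count listed also fell with span, in the first part from 9 at 5 to 7.5 kb to 6 at 50 to 100 kb. In the second part it fell from 4 to 2, and at 100 kb and more it was 1 in both. The part of this floor in the medians by span was not tested. Each FDR was under 0.05 as listed, 147 neighbour loops (26.5%) had an FDR under 0.001, and 21 were listed at an FDR of 0. The list carries no value per tumor and so no replicate, and no test was made between spans, places or genes. All intervals cover counting error alone, and loops of neighbouring anchors are not independent.

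The list is made of 2 parts, each sorted by position, which the sources used here do not assign to tumors. The parts differed in depth, with 28657 tags over 13683 loops in the first and 12917 tags over 10561 loops in the second. The first held 61.2% of the neighbour loops, with 8 to 74 tags and a median of 12 (interval 12 to 13), and the second held 215 loops (38.8%) with 4 to 16 tags and a median of 4 (interval 4 to 5). The ranges overlapped, but the least supported neighbour loop of the first part had more tags than the typical one of the second, and values are therefore given within each part where they could differ.

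Spans ran from 5.00 to 19.96 kb with a median of 10.6 kb, and the inner edges of the anchors were 0.594 to 18.01 kb apart (median 7.46 kb). In the first part the median fell from 13 tags at spans of 5 to 7.5 kb (79 loops) to 10.5 at 17.5 to 20 kb (36 loops), and in the second part it went from 4.5 to 4. The lowest count in the same bins went from 9 to 8 in the first part and stayed at 4 in the second. The part of that floor in these medians was not tested. The rank correlation of span and tags was -0.218 over the loops of the first part and -0.102 over the 215 of the second, across loops that share anchors. Anchor width and tags had a rank correlation of 0.220 and 0.341 in the same loops, and the part of width in the tag counts was not tested. The size of the correlation with width was close to that with span in the first part and larger in the second. Just inside the limit lay a loop from an unannotated place to Ube2d2a, a ubiquitin-conjugating enzyme, at 19.96 kb with 9 tags, Hoxc11 to Hoxc9 at 19.95 kb with 8 tags, and Eif4a2, a translation initiation helicase, to Rfc4, a clamp loader subunit, at 19.90 kb with 19 tags. Just outside it lay the nuclear receptor genes Thra and Nr1d1 at 20.04 kb with 4 tags, A730013G03Rik and Sertad4 at 20.05 kb with 8 tags, and Cebpzos and Cebpz at 20.06 kb with 4 tags.

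**Figure D1:**
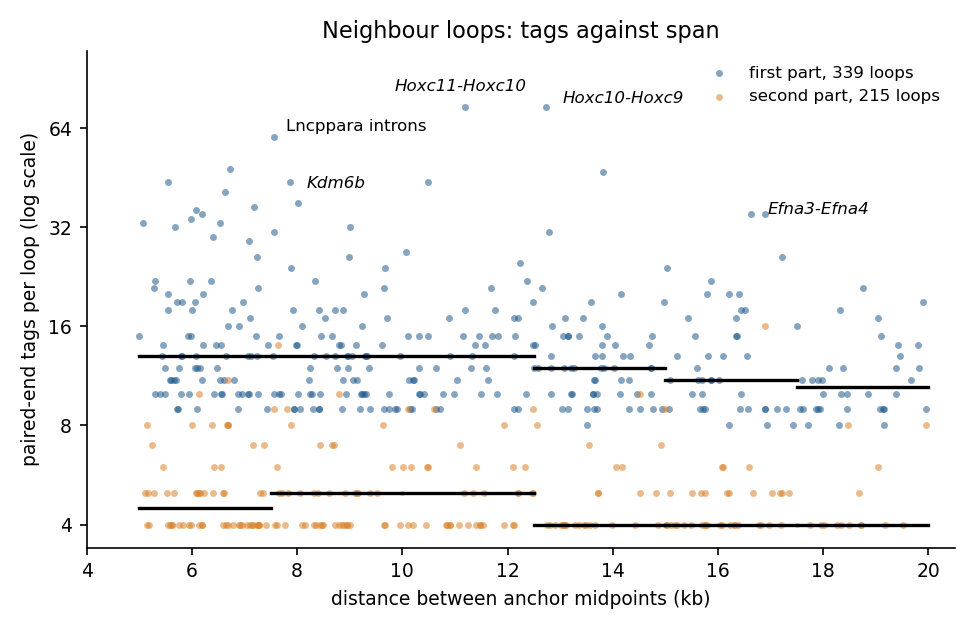
Each point is 1 neighbour loop, with the distance between its anchor midpoints in kb on the horizontal axis and its paired-end tags on a log scale on the vertical axis, in blue for the first part of the list and orange for the second, and black lines give the median of each part in bins of 2.5 kb. The strongest loops, with 74 tags, belong to the HoxC cluster, and the medians of the first part drop from 13 to 10.5 tags across the range.

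Most neighbour loops joined TSSs at both ends. Of the 554, 434 (78.3%, interval 74.7 to 81.6%) had a TSS within 2 kb of both anchors, 99 (17.9%, interval 14.9 to 21.3%) had one near 1 anchor only and 21 (3.79%, interval 2.49 to 5.73%) had none. The loops of 20 to 100 kb gave 76.8%, 19.7% and 3.48%, within the intervals of the neighbour loops. The share with TSSs at both ends was 82.9% in the first part (interval 78.5 to 86.5%) and 71.2% in the second (interval 64.8 to 76.8%). The loops of 20 to 100 kb had 82.4% in the first part, within the interval of the neighbour loops. In the second part they had 64.5% (interval 57.95 to 70.6%), just below that interval, although the 2 intervals overlapped. Median tags were 12 for loops of the first part with both anchors near a TSS, 14 with 1 and 12 with none, and 4 in each of these classes in the second part.

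A different picture came from asking which nearby anchors were joined at all, a comparison chosen after these values were seen. Within a part, 3916 pairs of listed anchors had midpoints 5 to 20 kb apart, and 14.1% of them were joined by a loop (554 pairs, interval 13.1 to 15.3%). In the first part, 26.9% of pairs with TSSs at both ends were joined (281 of 1044, interval 24.3 to 29.7%), against 17.1% with a TSS at 1 end (interval 13.2 to 21.9%) and 13.2% with none (9 of 68, interval 7.12 to 23.3%). The second part had the same order at lower values, with 10.5% (interval 9.03 to 12.2%), 6.65% (interval 5.08 to 8.66%) and 3.9% (interval 2.24 to 6.69%). The intervals of pairs with TSSs at both ends and at 1 end did not overlap in either part. Pairs share anchors and are not independent, so this describes the list and is not a test. At 20 to 100 kb the joined share was 6.85% and 5.43% for those classes in the first part and 1.89% and 2.08% in the second, with overlapping intervals in both. Anchors enter the list only when some loop uses them, so pairs of anchors that no loop reached are not counted. In the first part 555 of 596 anchors of neighbour loops also had a loop of 100 kb or more. The rest were listed through shorter loops alone, so the pairs counted depend in part on the loops called.

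**Figure D2:**
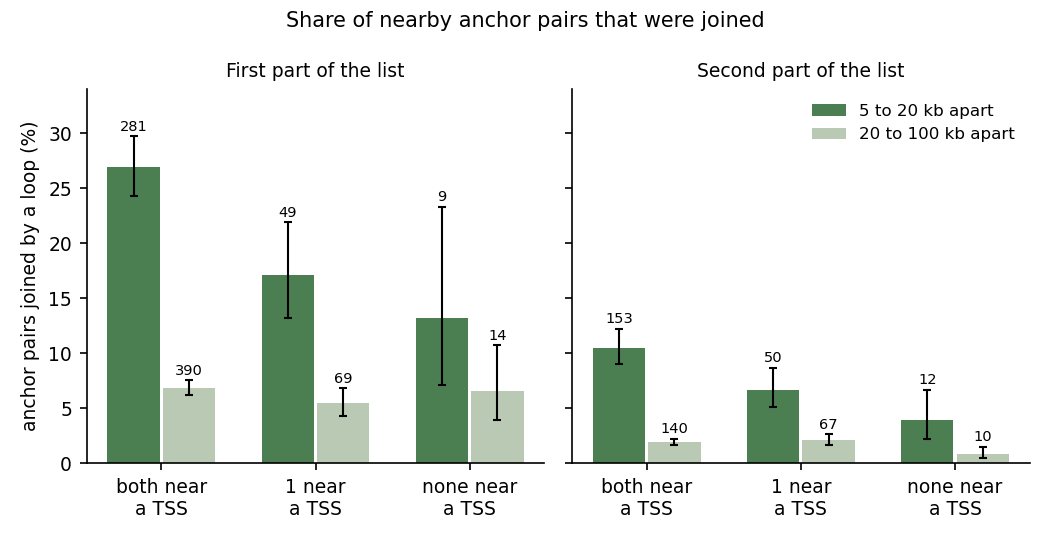
Bars give the percentage of anchor pairs joined by a loop, by whether both, 1 or neither anchor lies within 2 kb of a TSS, for pairs 5 to 20 kb apart (dark) and 20 to 100 kb apart (light), in the first part of the list on the left and the second on the right. Lines are Wilson 95% intervals and the numbers above them count the joined pairs. At 5 to 20 kb the share falls from pairs with TSSs at both ends to pairs with none in both parts.

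Genes rather than loops give the background for every gene count below. A TSS within 2 kb of a neighbour loop anchor was found for 825 of 21755 protein-coding genes (3.79%), and these made up 8.21% of the 10050 protein-coding genes reached by a loop of any span. With noncoding genes the number near a neighbour loop was 1092, of which 789 (72.3%) had a single neighbour loop and 82 had 3 or more. Both parts reached 207 of them, the first part alone reached 596 and the second alone 289. The median gene held 11 tags in its neighbour loops.

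The HoxC cluster, whose homeobox factors give body regions their positional identity, held the strongest neighbour loops of the list. The loop of Hoxc11 and Hoxc10 had 74 tags in the first part and 6 in the second, and the loop of Hoxc10 and Hoxc9 had 74 and 4. The 4 tags come from a loop whose anchor also covers the microRNA gene Mir196a-2. Hoxc12 and Hoxc11 were joined by 35 and 16 tags, the latter the highest count of any neighbour loop in the second part. These contacts, with Hoxc9 to Hoxc8 at 31 tags and Hoxc8 to Hoxc6 at 13 in the first part alone, ran from gene to gene along the cluster. In all, 14 loops with 367 tags formed an unbroken chain over 76.1 kb, at chr15:102936115-103012204, and 8 of the loops with 320 tags came from the first part. Summed over its neighbour loops, Hoxc10 held 195 tags, Hoxc9 170, Hoxc11 151, Hoxc12 55, Hoxc8 44 and Hoxc6 13. Hoxc5 held 208, but its annotated first exon lies beside Hoxc10, so 195 of those tags cannot be told apart from those of Hoxc10. Hoxc4 and Hoxc13 had none.

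The gene with the largest sum was the microRNA Mir196a-2, which lies between Hoxc10 and Hoxc9, with 8 neighbour loops and 219 tags. A small anchor at its hairpin was joined to Hoxc9 by 44 tags and to Hoxc10 by 37 in the first part, and to Hoxc11 by 12. Its TSS is also within 2 kb of the Hoxc9 anchors, so that 74 of its tags are those of the loop of Hoxc10 and Hoxc9. The tags of the loop of Hoxc9 and Hoxc8 are counted in its sum in the same way. The mature strands are shown because this hairpin is the center of the chain, with the seed, bases 2 to 8, in capitals, from RefSeq on GRCm38.p6.
miR-196a-5p, chr15:102973365-102973386, plus strand: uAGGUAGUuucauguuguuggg
miR-196a-2-3p, chr15:102973401-102973422, plus strand: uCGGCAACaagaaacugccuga
The RefSeq table gives the same 5p strand for Mir196a-1 of the HoxB cluster, at chr11:96265187-96265208, which had no neighbour loop. Among the 1092 genes 30 were microRNAs, 19 of them in the RefSeq table, and 14 of the 30 had a single neighbour loop. Gm28033, annotated as a microRNA beside Ppp1r18, came next with 79 tags, and among those in the RefSeq table the next were Mir6975 beside Ddx39b, with 48, and Mir219a-1 beside Ring1, with 41.

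The joined share of anchor pairs 5 to 20 kb apart was also counted in each Hox cluster, beside 24.2% of all such pairs in the first part and 8.54% in the second. In HoxC 8 of 9 pairs were joined in the first part and 6 of 20 in the second, and in HoxB 1 of 6 and 4 of 15. In HoxA 0 of 5 and 0 of 4 pairs were joined, and in HoxD 0 of 5 and 0 of 12, although 28 and 22 loops of any span touched those clusters in the first part and 9 and 16 in the second. At those background shares so few pairs would hold about 1 joined pair or none, so no difference is read from the zeros. Of the HoxB genes, Hoxb3 held 28 tags, Hoxb2 18, Hoxb6 14, Hoxb4 10, Hoxb5 8 and Hoxb7 6, all but Hoxb4 and 10 of the tags of Hoxb3 from the second part.

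**Figure D3:**
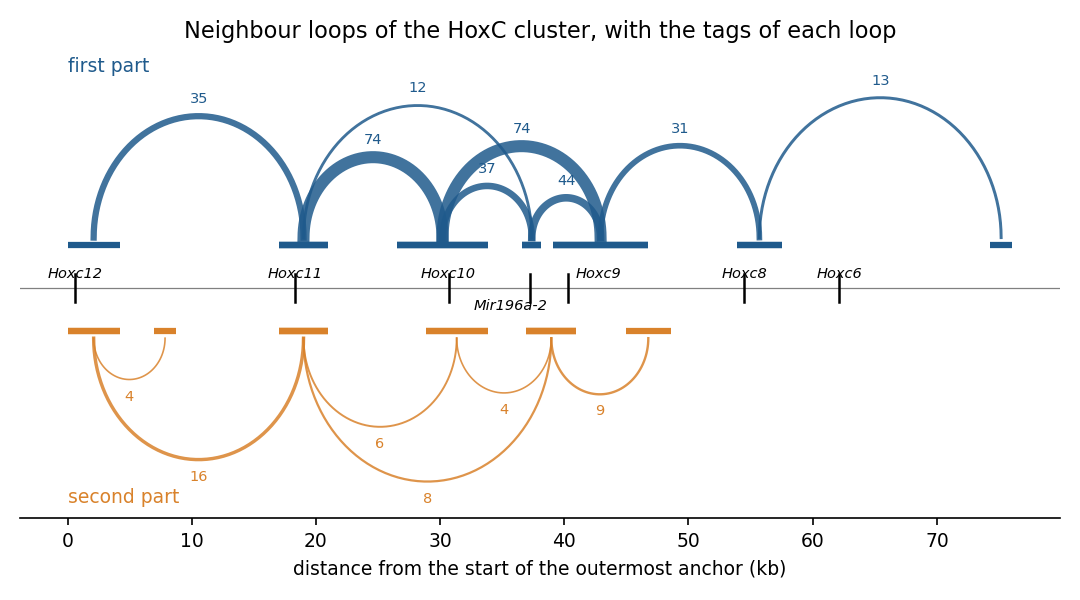
The 14 neighbour loops of the HoxC cluster are drawn as arcs over the distance in kb from the start of the outermost anchor, in blue above the line for the first part of the list and in orange below it for the second. Bars are anchors, ticks are gene starts, and line width and the numbers give the tags of each loop, which reach 74 between Hoxc11, Hoxc10 and Hoxc9.

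Developmental transcription factors outside the Hox clusters had chains of their own. Zic2 and Zic5, divergent zinc finger genes of neural development, shared a chain of 9 loops with 130 tags over 43.2 kb, 4 of the loops from the first part and 5 from the second. The strongest of them joined Zic2 to the place printed above, between genes and 3.22 kb from the nearest TSS, with 48 tags in the first part and 14 in the second. Zic2 and Zic5 were joined by 25 and 8 tags. In sum Zic2 held 109 tags and Zic5 53. Sp9, a zinc finger factor of limb and brain development, held 18 tags. In all, 4 of 28 genes of the zinc finger list had a neighbour loop (14.3%, interval 5.70 to 31.5%).

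Among 60 other homeobox factors 10 had a neighbour loop (16.7%, interval 9.31 to 28.0%). The convergent pair Dlx6 and Dlx5, which pattern the jaw and limb, was joined by 21 tags at a span of 18.8 kb, and another loop of 21 tags led from Dlx6 to the TSS of the antisense gene Dlx6os1, while the pair Dlx1 and Dlx2 on another chromosome was joined by 20 tags. All of these came from the first part, and the Dlx6 to Dlx6os1 contact had 4 tags in the second. Meis1, a cofactor of Hox proteins, held 23 tags in 3 loops. Tbx3, a limb patterning factor, held 60 tags in 3 loops of the first part, and was the single gene of the 32 T-box and forkhead factors with a neighbour loop. Of the Sox genes 4 of 19 were reached (21.1%, interval 8.51 to 43.3%), with Sox2 at 22 tags, Sox1 at 11, Sox6 at 8 and Sox12 at 4.

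Several of the 20 strongest neighbour loops joined housekeeping and regulatory genes that stand side by side. Prmt1, the main arginine methyltransferase, was joined to the shared start of Bcl2l12 and Irf3, a factor of the interferon response, by 44 tags. The V-ATPase subunit gene Atp6v1g2 and Nfkbil1 were joined to the RNA helicase gene Ddx39b by 41 tags in the first part and 7 in the second. Ring1, an E3 ligase of PRC1, was joined to Rxrb, a retinoid X receptor, and Slc39a7, a zinc transporter, by 36 and 5 tags.

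Loops of 35 tags each joined Ubald1 to Mgrn1, an E3 ubiquitin ligase, and Efna3 to Efna4 and Adam15, a metalloprotease. Midn, the gene of midnolin, was joined by 34 and 5 tags to Atp5d, an ATP synthase subunit, and Cbarp. Both Nrm, of the inner nuclear membrane, to Ppp1r18 and Cars2, a mitochondrial tRNA synthetase, to Ing1, a chromatin reader, had 33 tags, with 4 and 10 in the second part. The ribosomal protein gene Rpl7a and Med22 of the Mediator complex were joined by 32 tags to Surf2 and Surf1, a cytochrome oxidase assembly factor. All 20 strongest loops lay in the first part, and 19 of them were listed at an FDR of 0.

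**Figure D4:**
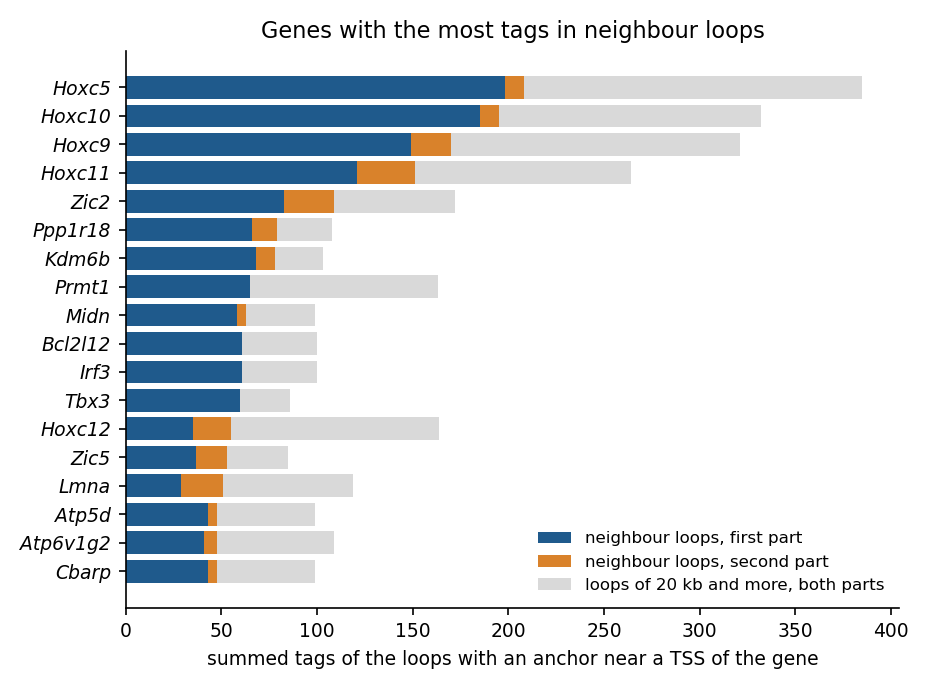
Bars give the summed tags of the loops with an anchor within 2 kb of a TSS of each gene, for the 18 protein-coding genes with the most tags in neighbour loops, in blue for neighbour loops of the first part, orange for those of the second and grey for loops of 20 kb and more. Hoxc5, Hoxc10, Hoxc9 and Hoxc11 stand above the rest, and Prmt1, Bcl2l12, Irf3 and Tbx3 have no tags in the second part.

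The arrangement of genes at the anchors was compared for the 393 neighbour loops with a protein-coding TSS at both ends. In 66 of them (16.8%, interval 13.4 to 20.8%) at least 1 gene had different TSSs near the 2 anchors, and in another 12 the same TSS was within 2 kb of both anchors. At 20 to 100 kb these counts were 15 of 479 (3.13%, interval 1.91 to 5.10%) and 0. The latter was fixed in advance, since the inner edges of those anchors lie at least 15.08 kb apart. The anchors of loops in both classes could also hold other genes, as at Lamb2 and Usp19, with 18 tags, and at Ring1 and Rxrb. Cases with no other protein-coding gene were Lmna, the gene of lamins A and C, with 29 tags in the first part and 7 in the second, and Ptch1, the hedgehog receptor, with 26 tags. Ptch1 held 47 tags in 3 loops in all, one of them to an intron of its own body with 14 tags.

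The other 315 had no protein-coding gene in common at their ends. By the TSS nearest each anchor midpoint, 165 were in tandem (52.4%, interval 46.9 to 57.8%), 88 divergent (27.9%, interval 23.3 to 33.1%) and 62 convergent (19.7%, interval 15.7 to 24.4%). At 20 to 100 kb the shares were 49.6%, 22.8% (interval 19.3 to 26.9%) and 27.6% (interval 23.7 to 31.8%), and the intervals of the convergent shares overlapped slightly. No protein-coding TSS of another gene stood between the ends in 283 of 315 neighbour loops (89.8%, interval 86.0 to 92.7%), against 40.1% at 20 to 100 kb. The span limit itself shortens the stretch in which such a TSS could lie, with a median gap of 7.46 kb against 43.5 kb. No difference in gene arrangement is therefore read from these shares.

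Anchors far from every TSS numbered 123, of which 73 lay between genes, 41 in introns and 9 in exons. Their median distance to the nearest TSS was 6.63 kb, and the farthest lay 57.5 kb away. In 31 of the 99 loops with a TSS at 1 end (31.3%, interval 23.0 to 41.0%) the far anchor lay within the body of the gene at the other end. The strongest after Zic2 was that of Kdm6b, an H3K27 demethylase, which was joined to a place 3.48 kb upstream by 44 tags in the first part and 5 in the second. Gadd45b, a stress-inducible gene, followed with 32 tags to a place between genes, and its relative Gadd45g had such a loop with 20 and 4 tags. The 3 loops of Tbx3, with 26, 20 and 14 tags, all led to the same anchor in an intron of the noncoding gene Tbx3os2. Lef1, a nuclear effector of Wnt signals, had 22 tags to a place 2.73 kb from its nearest TSS.

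Of the 21 loops with no TSS at either end, the strongest pair lay in introns of the noncoding gene Lncppara on chromosome 15, where the 3 printed anchors were joined in a row. The middle and right anchors, 7.56 kb apart, had 60 tags in the first part and 9 in the second, and the left and middle ones, 13.8 kb apart, had 47 tags and, from a wider anchor that reached the TSS of Lncppara, 6 tags. With loops to Gm49539, a noncoding gene to the left, the chain held 7 loops and 154 tags over 46.9 kb and not one protein-coding TSS. The next loop without a TSS joined places between genes on chromosome 2, chr2:30699327-30701397 and chr2:30706742-30709809, with 18 tags, and the nearest TSSs were those of Gm14488 at 15.6 and 7.23 kb. A further pair at chromosome 16, chr16:29878691-29880511 and chr16:29891911-29894870, had 13 tags at 44.0 kb or more from any TSS. The fifth, with 12 tags, shared an anchor with the pair on chromosome 2.

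Chaining of loops through shared or overlapping anchors put the 554 loops into 368 chains, 264 of them a single loop and 43 of at least 3 loops. The longest by loops, HoxC, Zic2 and Zic5, and the Lncppara locus, held 651 tags (10.6% of the tags of neighbour loops). Ppp1r18 was the center of a chain of 6 loops with 79 tags that reached Nrm and Dhx16. Histone gene clusters formed a chain of 4 loops with 47 tags at Hist1h1d to Hist1h4d and another of 4 loops with 38 tags at Hist2h4. Of the 368 chains, 69 held loops of both parts.

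Recovery between the parts was counted for single loops, although it is not known whether the parts come from different tumors. Of the neighbour loops of the first part, 75 (22.1%, interval 18.03 to 26.8%) had a loop of the second part that overlapped both anchors, and of the 215 of the second, 74 (34.4%, interval 28.4 to 41.0%) were met in the first. For loops of 20 to 100 kb these shares were 8.03% (interval 5.91 to 10.8%) and 17.5% (interval 13.03 to 23.1%). Where both anchors were present in the other part, 75 of 238 (31.5%) and 74 of 113 (65.5%) neighbour loops were met. Among the 51 loops of the first part with at least 20 tags, 25 were met (49.0%, interval 35.9 to 62.3%), so recovery went with tags. The loop of Dlx6 and Dlx5 and that of Prmt1 and Bcl2l12 were not met in the second part, while 6 of the 8 first-part loops of HoxC, the strongest loops of Zic2 and Kdm6b and the loops of Ddx39b and Cars2 named above were. In HoxC, the loops from Hoxc10 to Hoxc9 and from Hoxc10 to Mir196a-2 were met by the same second-part loop, with 4 tags.

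The SAT and MAT genes are lists that an associated paper of the same group drew from single-cell expression data, of genes silent in mesenchymal stromal cells, from which SyS can arise, and transcribed in SyS, and of genes transcribed in both. A neighbour loop was found for 14 of 185 SAT genes (7.57%, interval 4.56 to 12.3%) and 20 of 371 MAT genes (5.39%, interval 3.52 to 8.18%), beside 3.79% of all protein-coding genes. Among those reached by any loop the shares were 13.5% of 104 SAT genes (interval 8.19 to 21.3%) and 7.07% of 283 MAT genes (interval 4.62 to 10.7%), beside 8.21%. The SAT intervals and the MAT intervals overlapped each other. Leading SAT genes were Hoxc5 with 208 tags, Dlx6 with 46, Efna3 with 35, Ppfia3, of the synapse scaffold, with 30, and Hoxb3 with 28. Of the tags of Hoxc5, 195 cannot be told apart from those of Hoxc10. Sox2 and Lef1 had 22 each, Sp9 18, Hoxc6 13 and Sox1, a neural factor, 11. The MAT genes with the most tags were Ptms with 40, Agpat1, of phospholipid synthesis, with 29, Syvn1, of protein quality control in the endoplasmic reticulum, with 24, Ddah2 with 18 and Mfsd3 with 17.

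Beside 3.79% of all protein-coding genes, cytosolic ribosomal protein genes were reached in 15 of 78 cases (19.2%, interval 12 to 29.3%), led by Rpl7a with 43 tags, Rpl23a with 38 and Rpl18 with 30. Of 20 ephrins and Eph receptors, 4 were reached (20%, interval 8.07 to 41.6%), namely Efna4 with 39 tags, Efna3 with 35, Ephb4 with 13 and Efna1 with 9. The 35 tags of Efna3 are those of its loop to Efna4 and are counted for both genes. Immediate early genes were reached in 5 of 25 cases (20%, interval 8.86 to 39.1%), with Fos at 23 tags, Mafk at 9 and Junb at 7. Notch pathway genes were reached in 3 of 17 (17.6%, interval 6.19 to 41%), with Notch4 at 26, Rfng at 5 and Dll1 at 4. Notch4 lies among densely packed genes of chromosome 17, in a chain with Gpsm3, Rnf5, Agpat1 and Pbx2.

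Other pathway lists were reached at or near the background. They included 2 of 56 Wnt genes, Lef1 with 22 tags and Tle2, a corepressor, with 17, and 1 of 28 FGF and MAPK feedback genes, Spred2 with 5. Of 36 BMP, TGF-beta and hedgehog genes Ptch1 was the single one, and of 29 bHLH and mesenchymal factors there were 2, Id3 with 18 tags and Twist1 with 15. Of 30 BAF genes, Smarcd2 had 13 tags and Dpf2 6, and of 36 polycomb genes, Ring1 had 41 and Bcor 5. No collagen chain of 37 had a neighbour loop, although 9 had a loop of some span.

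For markers of other cell types the background is 46.2% of protein-coding genes with a loop of any span and 3.79% with a neighbour loop. None of 20 immune markers had a loop of any span. Of 15 endothelial markers 6 had a loop and none a neighbour loop, and of 15 skeletal muscle markers 2 had a loop and Mylpf, a myosin light chain, a neighbour loop with 9 tags. Of 22 genes associated with synovial sarcoma 15 had a loop and 3 a neighbour loop, Lef1, Sox2 and Twist1.

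The 940 distinct anchors of neighbour loops had a median GC content of 53.6% (interval 53.1 to 54.0%), against 53.2% for the 810 anchors whose shortest loop was 20 to 100 kb (interval 52.8 to 53.7%) and 51.3% for all 16864 anchors of the list. Anchors near a TSS had 54.0% and those far from every TSS 50.8% (interval 50.2 to 51.4%), the latter above the 46.8% of far anchors whose shortest loop was 100 kb or more (interval 46.6 to 46.9%). At 20 to 100 kb the far anchors had 49.4% (interval 48.1 to 51.0%), which overlapped the interval of the neighbour loops. The ratio of observed to expected CpG, which is high in CpG islands, had a median of 0.539 near TSSs and 0.341 at the 123 far anchors, 0.579 and 0.317 at 20 to 100 kb, and 0.562 and 0.239 at the anchors of long loops alone. Anchors near TSSs with a ratio above 0.6 made up 33.9% at neighbour loops, 45.2% at 20 to 100 kb and 41.2% at long loops. The GC content and the high ratio of far anchors were thus largely shared with loops of 20 to 100 kb, while the ratio near TSSs was lower at neighbour loops than in both other groups. The median width was 2.85 kb at neighbour loops, 2.90 kb at 20 to 100 kb and 2.57 kb at long loops, and the part of width in these values was not tested.

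**Figure D5:**
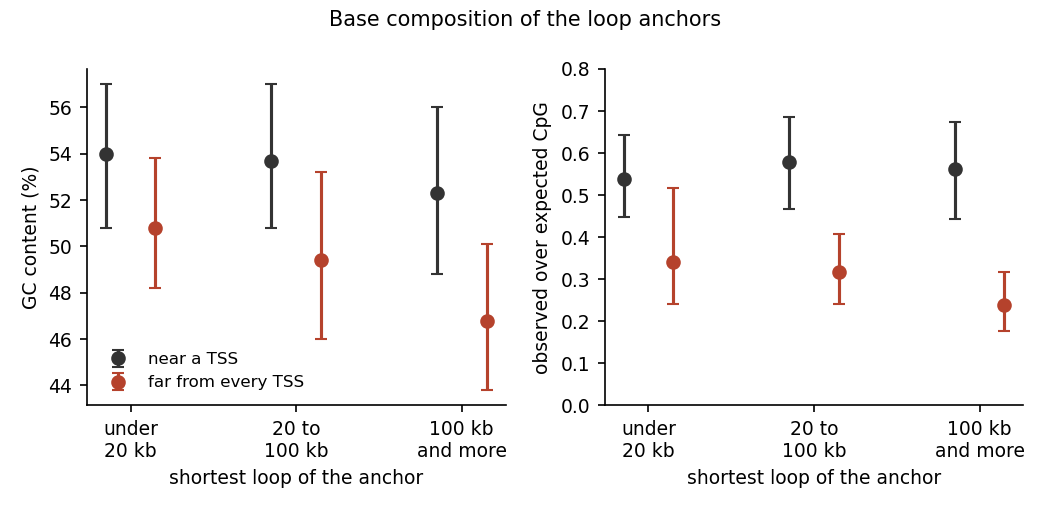
Points are medians and lines run from the lower to the upper quartile of GC content in percent (left) and of the ratio of observed to expected CpG (right), over distinct anchors near a TSS (dark) and far from every TSS (red), by the shortest loop of the anchor. Far anchors of neighbour loops sit at 50.8% GC and a ratio of 0.341, close to those of loops of 20 to 100 kb at 49.4% and 0.317 and above those of loops of 100 kb and more at 46.8% and 0.239.

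The cutting sites of MboI (GATC), between which tags can arise, were dense enough for every neighbour loop. Each anchor held at least 1 site, with a median of 6, and 5 to 73 sites (median 25.5) lay between the midpoints of joined anchors. The spacing along the loops was a median of 0.411 kb per site, against 0.413 kb at 20 to 100 kb.

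Matches to the CTCF consensus, the motif that pairs in facing orientation at many long loops, were rare. In the 1 kb at the anchor midpoint 9 of 940 anchors held one on either strand (0.957%, interval 0.505 to 1.81%), beside 1.09% of all anchors. Over whole anchors a match was present in 20 of 554 neighbour loops (3.61%), beside 6.52% of loops of 20 to 100 kb and 4.73% of longer ones. Both ends held one in 0.29% of loops of 20 to 100 kb and 0.0565% of longer ones. Among neighbour loops this was a single loop (0.181%, interval 0.0319 to 1.02%), with the matches in the same orientation and not facing each other. That loop joined Scarna2 to Tmem167b with 10 tags, and both matches are printed with 20 bases on each side and the match in capitals, on the minus strand of GRCm38, as is the match in the Sox2 anchor, on the plus strand, whose strongest loop had 16 tags.
Scarna2 anchor, chr3:108554846-108554899: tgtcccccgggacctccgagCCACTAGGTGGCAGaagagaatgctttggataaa
Tmem167b anchor, chr3:108563509-108563562: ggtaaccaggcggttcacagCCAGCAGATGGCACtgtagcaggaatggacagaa
Sox2 anchor, chr3:34647867-34647920: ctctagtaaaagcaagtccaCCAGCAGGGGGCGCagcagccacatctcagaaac

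In the same 1 kb the AP-1 element TGACTCA, searched on both strands, was present in 10.4% of neighbour loop anchors (interval 8.63 to 12.5%) and 11.8% of all anchors, and at far anchors in 12.2% (interval 7.53 to 19.1%) and 16.8%. The E-box CAGCTG was present in 41.7% (interval 38.6 to 44.9%) and 42.5%, and at far anchors in 52% (interval 43.3 to 60.7%) and 47.9%. The shares over all anchors lay within the intervals of the neighbour loops in each of these comparisons.

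Anchors of neighbour loops were also ends of long loops. In the first part 555 of 596 such anchors (93.1%) had a loop of 100 kb or more, with a median of 5 per anchor. Anchors whose shortest loop was 20 to 100 kb were close by, at 93.4% with a median of 4. In the second part the shares were 87.6% and 85.7%, and the medians were 3 and 3. Neighbour loops per Mb were most frequent on chromosome 19 (0.635), chromosome 17 (0.611) and chromosome 11 (0.532) and least on chromosome X (0.0292), and as a share of the loops of a chromosome they ran from 1.06% on chromosome 18 to 3.57% on chromosome 19 (interval 2.62 to 4.84%).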

How the data were processed

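HiChIP with an antibody against H3K27ac was performed on 2 hSS2 tumors. Per the labels the genome is mm10. Mapping to that build and loop calling by hichipper, with an FDR from Mango, were done by the authors, who also merged the calls of the pair of tumors. The deposited list gives a raw count of paired-end tags per loop and an FDR, a p-value adjusted for multiple testing. How the merge treated counts is not given in the sources used here. The 69 ChIP-seq samples are not analysed here.

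Positions were converted to start at 1. Neighbour loops were those with anchor midpoints under 20 kb apart. Members, gene lists and comparisons were chosen with earlier results of these data known. TSSs were those of GENCODE M21 on GRCm38, for 53843 genes, and an anchor was near a TSS within 2 kb. No per-sample columns exist, so no test was made. Shares have Wilson 95% intervals and medians order-statistic 95% intervals. Depth was a total of 41574 tags. The list holds 2 position-sorted parts, with 339 and 215 neighbour loops, which were not assigned to tumors. The 12 neighbour loops that repeat 6 anchor pairs were counted separately. The study's methods place the loops' limit at an FDR of 0.05 and a supplementary legend at 0.01. The FDRs as listed reach 0.04998, and 237 of the 554 neighbour loops have an FDR under 0.01.

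Named genes were those at the 20 strongest loops, those with the largest summed tags, those at the 5 strongest loops without a TSS, leading SAT, MAT and Hox genes, the leading members of each other list and loops at the limit or in both parts. Functions were tested on simulated data with planted loops. Alternatives were limits of 15 and 25 kb, the gap between anchors, TSS windows of 1 and 5 kb, protein-coding or RefSeq TSSs, an FDR under 0.01 or 0.001, at least 4 tags, summed repeats, each part alone, no Hox loops, anchors of 4 kb, and a stricter overlap. The values of 4 genes are not reported here. The share of anchor pairs joined, the loops of 100 kb from each anchor, and recovery among loops whose anchors were present in the other part were added after values were seen. The tools were numpy 2.4.6, scipy 1.17.1, pysam 0.24.0, pandas 2.3.3 and matplotlib 3.10.9 under Python 3.11.15.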

Additional observations from a re-analysis of the deposited data

How the results depend on the processing

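Of 109 values under the alternatives, 69 stayed within the interval of the main value and 40 moved. Some of the 69 could not move. The limit of at least 4 tags dropped no neighbour loop, so their median tags, TSS classes, shared genes and GC were fixed. Summed repeats likewise could not change the share of tags. The number of neighbour loops was set against the loops listed under the same setting. It made up 2.285% of them, and this was 1.757% at 15 kb, 2.677% at 25 kb, 2.557% by the gap between inner edges, 6.418% and 7.519% with an FDR under 0.01 and 0.001, 33.93% with at least 4 tags and 2.036% in the second part. Their share of tags, 14.8%, was 11.8% at 15 kb, 17.3% at 25 kb, 16.6% by the gap between inner edges, 25.4% and 28.8% with an FDR under 0.01 and 0.001, 42.5% with at least 4 tags, 17.7% and 8.51% in the first and second part and 14.3% without Hox loops. The median of 10 tags was 14 and 17 at the stricter FDRs and 12 and 4 in the parts. The share with both anchors near a TSS, 78.3%, was 74.5% with windows of 1 kb, 86.3% with 5 kb, 70.9% with protein-coding TSSs, and 82.9% and 71.2% in the parts. The share with 1 anchor near a TSS, 17.9%, was 10.3% with 5 kb, 23.1% with protein-coding TSSs, and 14.4% and 23.3% in the parts, and the share with none, 3.79%, was 5.96% with protein-coding TSSs. Among loops with TSSs at both ends, 82 of 434 (18.9%) shared a gene, and this was 23.8% at 15 kb, 13.1% with windows of 1 kb, 49.8% with 5 kb and 11.4% with RefSeq TSSs, so that value depends on the TSS set and window. Median GC, 53.6%, was 54.2% and 54.3% at the stricter FDRs, 53.1% in the second part and 52.2% with anchors of 4 kb. The share of the first part met in the second, 22.1%, was 10.6% and 8.13% at the stricter FDRs. The 19 neighbour loops with an anchor at a Hox TSS were left out where Hox loops were. The cause of other shifts was not tested. No paired analysis was possible because the list has no value per tumor. With 4 to 8 tags at its weakest, a neighbour loop can be counted as absent from a part only in the sense that it was not called at that depth.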

Other observations

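The genes named here were chosen after their values were seen. Cdkn1b, the gene of the cyclin-dependent kinase inhibitor p27, was joined to the noncoding gene Lockd downstream of it by 31 tags in the first part, and 60.8% of the 51 tags of Cdkn1b in loops of any span were in that loop. Of the 48 tags of Cars2, 89.6% were in neighbour loops, as were 85% of the 40 of Dlx5 and 75.7% of the 103 of Kdm6b. By contrast, Prmt1 had 39.9% of 163 tags there and Lmna 42.9% of its own.

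Anchors of single genes also included Bbc3, a proapoptotic BH3 gene, with 19 tags to an intron of the adjacent gene Sae1, Twist1, a mesenchymal bHLH factor, with 15 tags to a place 9.37 kb from its nearest TSS, Cdx2, a homeobox factor of the hindgut, with 15 tags, and Fos, with 14 tags to a place 9.83 kb from its nearest TSS. All of these were found in the first part.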
